A study of Mus musculus with 6 samples.

Results

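The 37 genes described here belong to the mitochondrial route from fatty acids and pyruvate to carbon dioxide, with Ehhadh, a peroxisomal enzyme, Mdh1, a cytosolic one, and 2 transcriptional regulators. They were taken by symbol from a fixed list. By role they are 4 genes of carnitine-dependent import, 3 acyl-CoA dehydrogenases, 8 enzymes of the later steps of beta-oxidation and of acetyl-CoA handling, 3 of electron transfer, 2 regulators, 4 subunits of the pyruvate dehydrogenase complex and 13 citric acid cycle genes. The array carried 86 probe sets for them among 45101. All 37 genes, of 18193 named on the array, passed the filter on low signals that left 11159 genes tested.

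Glomeruli, the filtering units of the kidney, were isolated on magnetic beads from 6 mice, and the RNA of each mouse was hybridised to its own Affymetrix array. Of these mice, 3 were transgenic animals in which Cre recombinase, driven by the podocin promoter (Pod-Cre), deletes the floxed Vhl gene in podocytes, and 3 were littermates labelled wild-type. The parents carried a copy of Pod-Cre and were homozygous for floxed Vhl. All mice were female and 6 weeks old, and the transgenic mice had, at 4 weeks, urine albumin no higher than the wild-type average. The labels do not give the strain or the genotype of each control littermate. Offspring of parents homozygous for floxed Vhl would carry floxed alleles, so wild-type is used here as a label only. Podocytes are the cells that Cre targets, whereas the arrays measure all cells of the preparation. The groups are called wild-type and Vhl-deleted below, and arrays are named by group and replicate number.

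Beta-oxidation shortens fatty acids inside mitochondria and peroxisomes, and the acetyl-CoA it releases is burned in the citric acid cycle, which pyruvate enters through pyruvate dehydrogenase. The proximal tubule, which lies next to the glomerulus in the cortex, is packed with mitochondria and runs largely on fatty acids, with PPAR-alpha and PGC-1alpha as main activators of these genes. Vhl marks the hypoxia-inducible factors for destruction, and those factors are known in other cells to raise glycolysis and, through Pdk1, to hold pyruvate out of the mitochondria.

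The glomerular identity was present on every array: signals of Nphs1, which encodes nephrin of the podocyte slit diaphragm, lay between 4827 and 9142. Vhl itself, measured in whole glomeruli, gave signals of 727 ± 74.1 (wild-type) and 612 ± 6.46 (Vhl-deleted; SD, n = 3 each). That is a log2 difference of -0.23 (limma adjusted p = 0.944), and whether this probe set lies inside the deleted part was not tested.

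The signal of tubule markers differed between arrays, and wild-type 3 stood apart. The mean log2 signal of 42 tubule markers (26 proximal, 16 distal) was 11.12, 11.30 and 9.69 in wild-type 1, 2 and 3, and 10.92, 10.79 and 11.64 in Vhl-deleted 1, 2 and 3. Wild-type 3 was thus the lowest array and Vhl-deleted 3 the highest, and the groups overlapped. The group difference was 0.41 (exact two-sided permutation test, p = 0.6, where 3 against 3 arrays allow no p below 0.1). The summed signal of these markers ranged from 75419 to 224661 in wild-type arrays and from 168646 to 281097 in Vhl-deleted arrays, and none of the markers was at 0. Lrp2, the endocytic receptor megalin of the proximal tubule, had signals of 5318, 6057 and 1018 in wild-type arrays and 4963, 4943 and 6282 in Vhl-deleted glomeruli. The 19 podocyte markers were highest in wild-type 3 and lowest in Vhl-deleted 3. Their means were 12.54, 12.62 and 12.96 in wild-type arrays and 12.60, 12.52 and 12.39 in Vhl-deleted arrays. That is a difference of -0.20 (exact permutation p = 0.2). Among the other arrays, wild-type 2 was the highest and Vhl-deleted 2 the lowest for both tubule and podocyte markers. The counts and medians over all 37 genes, and over the lists set beside them, are therefore given also with the tubule marker mean as a covariate and without wild-type 3. In whole glomeruli, fewer cells of a type and less RNA per cell cannot be told apart.

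No gene of oxidation or the cycle passed the test between the groups. With limma on log2(signal + 28), 0 of 37 had an adjusted p under 0.05, against 9 of the 11159 genes tested (0.0807%), of which 8 were higher (0.0717%) and 1 lower (0.00896%) after Vhl deletion. At an unadjusted p under 0.05 the count was also 0 of 37, against 549 of all genes. The adjusted p of the 37 lay between 0.944 and 0.994, and the wild-type and Vhl-deleted arrays overlapped for every one of them, while 10.7% of all genes had groups that did not overlap. On the log2 scale, 34 of the 37 differences were above 0, with a median of 0.16, against 50.9% of all genes and a median of 0.0043. Only Cpt1a, Crat and Hadhb were below 0.

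That shift above 0 was not seen with the tubule marker mean as a covariate or without wild-type 3. In part it remained in other settings. With distal markers alone as the covariate 26 of 37 were above 0 (median 0.040), and without Vhl-deleted 3 there were 24 (median 0.038). With proximal markers alone there were 10 (median -0.040). Leaving out wild-type 3 removes everything that differs on that array, and the cause of the shift was not tested. With the tubule marker mean in the fit, 13 differences were above 0 and 24 below, with a median of -0.016 (all genes -0.0060, 48.3% above 0). Again 0 of 37 passed, against 35 of all genes (0.314%), of which 31 were higher (0.278%) and 4 lower (0.0358%); at an unadjusted p under 0.05 the counts were 1 and 780. Without wild-type 3, 6 were above 0 and 31 below, with a median of -0.057 (all genes -0.010, 47.4% above 0), and 0 of 37 passed against 12 of all genes (0.108%). None of the 37 had an unadjusted p under 0.05 in that fit, against 557 of all genes. The median standard error of the 37 differences was 0.214 on 6 arrays and 0.0948 with the covariate, against 0.161 and 0.131 over all genes.

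**Figure D1:**
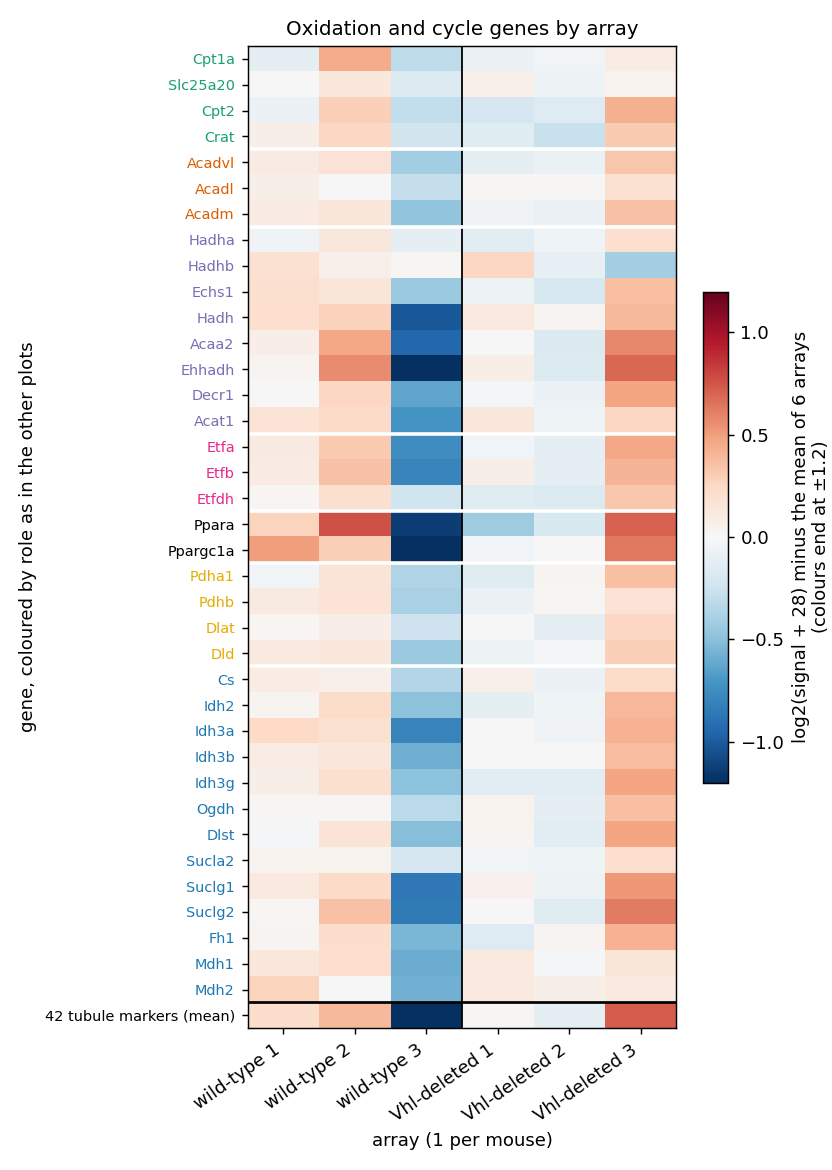
Heat map of the 37 genes (vertical axis, grouped by role) on the 6 arrays (horizontal axis), with colour giving log2(signal + 28) minus the gene's mean over the 6 arrays, and the mean of 42 tubule markers at the bottom. Wild-type 3 is the bluest column and was the lowest array for 34 of the 37 genes, and Vhl-deleted 3 was the highest Vhl-deleted array for 35.

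**Figure D2:**
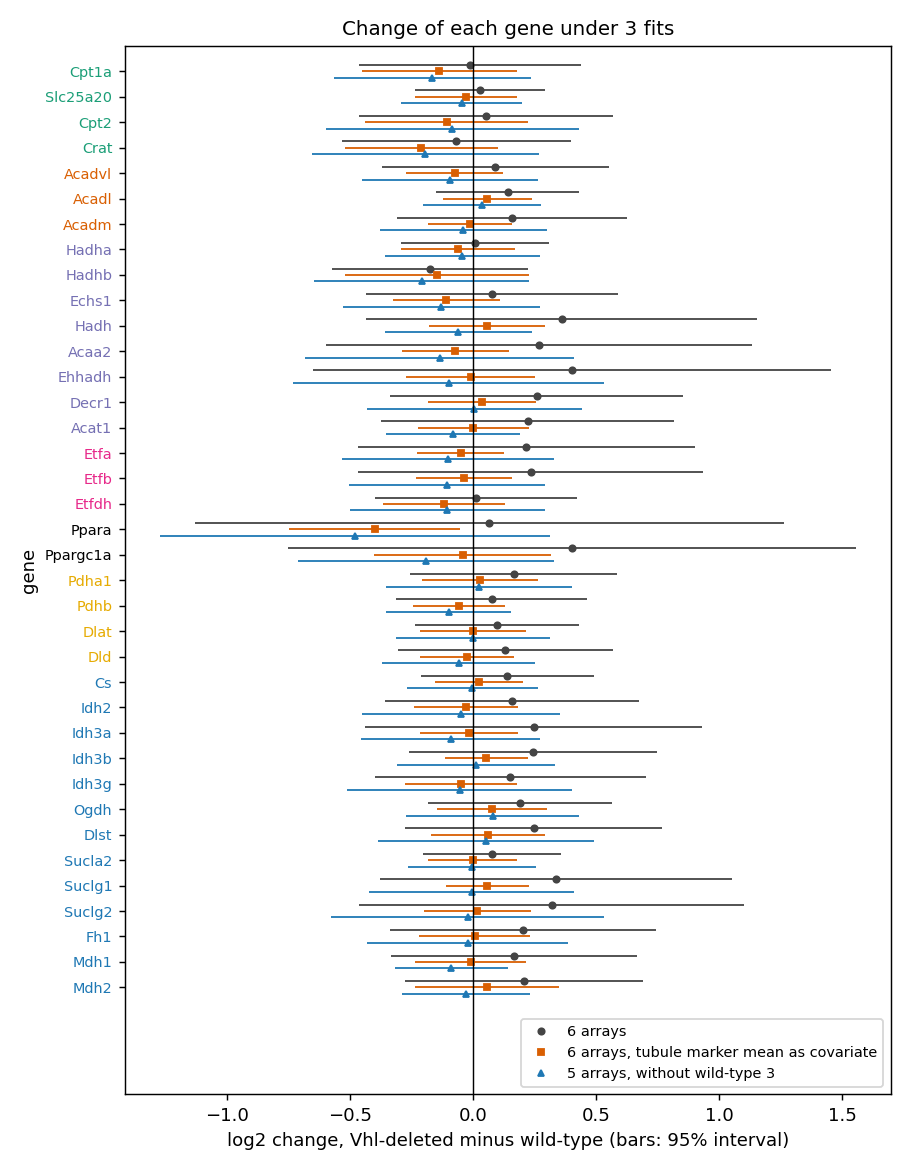
Log2 difference of each gene, Vhl-deleted minus wild-type (horizontal axis; bars are 95% intervals), from 6 arrays, from 6 arrays with the tubule marker mean as a covariate, and from 5 arrays without wild-type 3. The points lie mostly right of 0 in the first fit (34 of 37) and mostly left of 0 in the others (24 and 31 of 37), and only the covariate interval of Ppara leaves out 0.

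Of the regulators, Ppara encodes the nuclear receptor that switches on fatty acid oxidation and Ppargc1a the coactivator PGC-1alpha, which drives mitochondrial genes. They and Ehhadh, the bifunctional enzyme of peroxisomal oxidation, were the genes that followed the tubule marker mean most steeply, read from the chosen probe set. Their promoter windows, from RefSeq on GRCm38.p6 and running from 250 bases before to 50 after the annotated start, are shown because these 3 genes moved together across the arrays. Capitals mark every match, on either strand, to the motifs searched: ACGTG and GCGTG, both forms of the core bound by hypoxia-inducible factors, the latter also the core of the dioxin response element; TNAAGGTCA, the site of estrogen-related receptors; AGGTCA repeated after any 1 base, the site of PPAR receptors; and the site of NRF1, read as GCGC, any base, then TGCGC.
Ppara: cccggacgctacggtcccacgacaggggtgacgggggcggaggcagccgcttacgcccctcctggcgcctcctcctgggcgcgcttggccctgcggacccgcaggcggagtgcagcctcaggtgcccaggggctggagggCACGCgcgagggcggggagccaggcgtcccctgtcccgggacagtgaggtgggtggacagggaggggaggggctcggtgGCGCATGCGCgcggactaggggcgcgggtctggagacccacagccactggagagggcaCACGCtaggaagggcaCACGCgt
Ppargc1a: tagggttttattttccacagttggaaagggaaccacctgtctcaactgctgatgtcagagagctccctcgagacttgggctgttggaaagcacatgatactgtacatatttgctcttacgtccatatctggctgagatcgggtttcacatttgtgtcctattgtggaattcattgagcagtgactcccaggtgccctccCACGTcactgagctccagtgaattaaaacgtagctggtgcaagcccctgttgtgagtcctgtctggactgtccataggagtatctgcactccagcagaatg
Ehhadh: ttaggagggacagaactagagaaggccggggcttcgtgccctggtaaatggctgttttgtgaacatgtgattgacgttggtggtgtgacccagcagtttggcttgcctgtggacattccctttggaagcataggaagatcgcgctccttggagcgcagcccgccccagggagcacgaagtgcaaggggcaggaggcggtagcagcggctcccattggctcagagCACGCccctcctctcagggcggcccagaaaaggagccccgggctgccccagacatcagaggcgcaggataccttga
The Ppara window (chr15:85735526-85735825, plus strand) holds the NRF1 motif as GCGCATGCGC from base 220, counted from 1 at the 5′ end, and GCGTG as its reverse complement CACGC at bases 141, 278 and 294. The Ppargc1a window (chr5:51567676-51567975, minus strand) holds ACGTG as its reverse complement at base 200, and the Ehhadh window (chr16:21787785-21788084, minus strand) holds GCGTG as its reverse complement at base 225. No matches overlap in these 3 windows.

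The table of promoters matched 32 of the 37 genes, with 37 windows. ACGTG was present for 6 genes (Acadvl, Ppargc1a, Pdhb, Idh3g, Ogdh and Mdh1) and in 19.6% of all 32851 windows of this length. GCGTG was present for 18 genes and in 32.4% of all windows, and the NRF1 site for 5 (Etfb, Etfdh, Ppara, Dld and Sucla2) and in 4.6%. TNAAGGTCA (1.28% of all windows) and the PPAR repeat (0.0396%) were found in none of the 37 windows. Genes with several annotated starts have several windows, so counts by gene and shares by window cannot be compared directly. A match is a match of letters in the window.

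Ppara had signals of 837, 1194 and 301 in wild-type 1, 2 and 3 and of 508, 604 and 1150.4 in Vhl-deleted 1, 2 and 3. The highest and lowest values were both wild-type, so the groups overlapped fully. Its log2 difference was 0.066 (SE 0.51, limma adjusted p = 0.987). With the tubule marker mean in the fit the difference was -0.40, with a 95% interval of -0.75 to -0.053 and an unadjusted p of 0.0289. Ppara was the 1 gene of the 37 with an unadjusted p under 0.05 in that fit, and it did not pass after adjustment over all genes (limma adjusted p = 0.597). Without wild-type 3 the difference was -0.48. Ppargc1a had signals of 844, 718 and 206 in wild-type arrays and 572, 587 and 923 in Vhl-deleted arrays, with a difference of 0.40 (SE 0.49, limma adjusted p = 0.944). With the covariate it was -0.043 (-0.40 to 0.32). Wild-type 3 had the lowest signal of both regulators, below every Vhl-deleted array, and differed from the mean of the other wild-type arrays by -1.79 for Ppargc1a as a log2 signal, the largest such gap among the 37.

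Import into mitochondria runs through Cpt1a, which loads long-chain fatty acids onto carnitine at the outer membrane, Slc25a20, the carrier of the carnitine ester, and Cpt2, which takes the carnitine off again. Crat, the carnitine acetyltransferase, buffers acetyl-CoA. The median difference was 0.0088 over its 4 genes, -0.12 with the covariate and -0.13 without wild-type 3. Cpt1a had signals of 3537, 5241 and 3115 in wild-type arrays and 3654, 3752 and 4109 in Vhl-deleted arrays. Wild-type 2 was the highest array and wild-type 3 the lowest, with the Vhl-deleted arrays between them, and the difference was -0.012 (SE 0.19, 95% interval -0.46 to 0.44, limma adjusted p = 0.994). Slc25a20 had 1602, 1745 and 1422 against 1669, 1535 and 1652, a difference of 0.030 (-0.23 to 0.29). Crat had 528, 597 and 426 against 449, 409.7 and 629, a difference of -0.068 (-0.53 to 0.40), and -0.21 (-0.52 to 0.10) with the covariate. Its lowest array was Vhl-deleted 2. Cpt2 lay between 856 and 1299 in wild-type arrays and between 917 and 1435 in Vhl-deleted arrays, with a difference of 0.052.

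The acyl-CoA dehydrogenases carry out the first oxidation of each round, on very long chains (Acadvl), long chains (Acadl) and medium chains (Acadm). Acadl had signals of 3729, 3554 and 2915 in wild-type arrays and 3592, 3598 and 4023 in Vhl-deleted arrays. Wild-type 3 was the lowest and Vhl-deleted 3 the highest, while the other 4 arrays lay within 3554 to 3729. Its difference of 0.14 (-0.15 to 0.43, limma adjusted p = 0.944) became 0.058 (-0.12 to 0.24) with the covariate and 0.036 without wild-type 3, and Acadl was 1 of the 3 genes that stayed above 0 under every setting tried, with Ogdh and Dlst. Acadm had 9070.4, 9399 and 6093 against 8265, 8099 and 10819.5, and differed by 0.16 (-0.31 to 0.63) and by -0.013 with the covariate. Acadvl ranged from 1949.7 to 2956 in wild-type arrays and from 2417 to 3286 in Vhl-deleted arrays, a difference of 0.091 that was -0.075 with the covariate. Levels of different probe sets are not compared here, since their brightness differs by probe.

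The later steps hydrate, oxidise and split the chain. Hadha and Hadhb are the subunits of the trifunctional protein of the inner membrane, Echs1 and Hadh act on shorter chains, Acaa2 is the mitochondrial thiolase, Decr1 prepares unsaturated chains, Ehhadh works in peroxisomes and Acat1 is the mitochondrial acetoacetyl-CoA thiolase. Their median difference was 0.24, -0.035 with the covariate and -0.091 without wild-type 3. Ehhadh had signals of 1902, 2754 and 788 in wild-type arrays and 1960.0, 1653 and 3004 in Vhl-deleted arrays. Wild-type 3 was far below the others and Vhl-deleted 3 was the highest, and the difference of 0.40 (-0.65 to 1.46) was -0.010 (-0.27 to 0.25) with the covariate. Hadh had the same order at its ends, with 14675, 15381 and 6253 against 13782, 13028 and 16681, a difference of 0.36 (-0.43 to 1.16) that was 0.056 with the covariate. Echs1 had 2549, 2455 and 1622 against 2131, 1948 and 2869, a difference of 0.076 and of -0.11 (-0.33 to 0.11) with the covariate. Acaa2, Decr1 and Acat1 differed by 0.27, 0.26 and 0.22, and by -0.072, 0.036 and 0.0014 with the covariate.

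Both trifunctional protein genes departed from the order of the other arrays. Hadha had signals of 2263, 2562 and 2153 in wild-type arrays and 2113, 2243 and 2681 in Vhl-deleted arrays, with its lowest value in Vhl-deleted 1, and differed by 0.0084 (-0.29 to 0.31). Hadhb had 6229, 5726 and 5556 against 6511, 5124 and 4124, a difference of -0.17 (-0.57 to 0.22), and was the 1 gene whose Vhl-deleted 3 array was the lowest of all. That value came from the brightest of its 3 kept probe sets. The next brightest had signals of 5571, 5854 and 4140 against 5337, 5115 and 6691, with wild-type 3 the lowest and Vhl-deleted 3 the highest. It differed by 0.14 and followed the tubule marker mean with a slope of 0.34 (limma adjusted p = 0.0127 over all kept probe sets), so the bright probe sets of Hadhb disagree.

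Electron transfer flavoprotein, encoded by Etfa and Etfb, collects the electrons of all acyl-CoA dehydrogenases, and Etfdh passes them to ubiquinone. Etfdh had signals of 2062, 2316 and 1714 in wild-type arrays and 1830.5, 1803 and 2533 in Vhl-deleted arrays, with a difference of 0.010 (-0.40 to 0.42) and of -0.12 (-0.37 to 0.13) with the covariate. Etfa and Etfb differed by 0.22 and 0.23, and by -0.050 and -0.036 with the covariate. In wild-type 3 their signals were 2334 and 2623, the lowest of the 6 arrays.

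The pyruvate dehydrogenase complex turns pyruvate into acetyl-CoA and is built from the decarboxylase subunits Pdha1 and Pdhb, the acetyltransferase Dlat and Dld, a subunit that other dehydrogenase complexes share. The 4 genes differed by 0.16, 0.076, 0.099 and 0.13 in that order, with a median of 0.12 that was -0.012 with the covariate. Pdha1 had signals of 5303, 6059.8 and 4223 in wild-type arrays and 4915, 5578 and 6987 in Vhl-deleted arrays. Again wild-type 3 was the lowest and Vhl-deleted 3 the highest, with the other arrays mixed between them.

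In the citric acid cycle all 13 differences were above 0, with a median of 0.20, and 8 of 13 remained above 0 with the covariate, where the median was 0.018. Without wild-type 3 the median was -0.021. Cs, citrate synthase, which opens the cycle, had signals of 4800.5, 4709 and 3529 in wild-type arrays and 4703, 4315 and 5270.5 in Vhl-deleted arrays, a difference of 0.14 (-0.21 to 0.49) that was 0.024 (-0.16 to 0.20) with the covariate. The isocitrate dehydrogenase genes Idh2, Idh3a, Idh3b and Idh3g differed by 0.16, 0.25, 0.24 and 0.15. Idh3b, a subunit of the NAD-dependent enzyme, had 5983, 6141 and 3730.2 against 5634, 5580.3 and 7254, and 0.054 (-0.12 to 0.22) with the covariate. Its wild-type arrays 1 and 2 lay above Vhl-deleted arrays 1 and 2.

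The oxoglutarate dehydrogenase complex had the 2 cycle genes that held their sign under every setting. The settings read the chosen probe set or the mean of the kept ones. Ogdh has another, much dimmer kept probe set (mean signal 148), and that one differed by -0.15. Ogdh, its decarboxylase, had signals of 2268, 2265 and 1789 in wild-type arrays and 2305, 2075 and 2879.7 in Vhl-deleted arrays, a difference of 0.19 (-0.18 to 0.57, limma adjusted p = 0.944) and of 0.076 (-0.15 to 0.30) with the covariate. Dlst, its succinyltransferase, had 2332, 2649 and 1651 against 2417, 2151 and 3306, a difference of 0.25 (-0.27 to 0.77) and of 0.061 (-0.17 to 0.29) with the covariate. For both genes Vhl-deleted 2 lay below wild-type 1 and 2, so the groups overlapped also without wild-type 3.

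Of the remaining cycle genes, Suclg1, the shared subunit of succinate-CoA ligase, had signals of 5016, 5420.1 and 2543 in wild-type arrays and 4777, 4427 and 6629.6 in Vhl-deleted arrays, a difference of 0.34 (-0.38 to 1.05) that was 0.058 (-0.11 to 0.23) with the covariate and -0.0052 without wild-type 3. Its partner subunits Suclg2 and Sucla2, which set the use of GDP or ADP, differed by 0.32 and 0.076. Fh1, fumarase, differed by 0.20, and the cytosolic and mitochondrial malate dehydrogenases Mdh1 and Mdh2 by 0.17 and 0.21. The size of the Mdh1 difference varied between its 3 kept probe sets: another, with a signal of 5528 in wild-type 3 and 23408 in Vhl-deleted 3, differed by 0.60, and the last by 0.45. Of the 37 genes, 23 had more than 1 kept probe set. In sign, 10 of the 37 further probe sets differed from the chosen one, in 9 genes that include Cpt1a, Ogdh, Ppara and Ppargc1a. None of the 74 kept probe sets passed the test.

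What the 37 genes shared was their order over the arrays. Wild-type 3 was the lowest of the 6 arrays for 34 of them, against 27.5% of all genes, with Crat, Hadha and Hadhb as the exceptions. Vhl-deleted 3 was the highest Vhl-deleted array for 35, against 41.9% of all genes, with Slc25a20 and Hadhb as the exceptions. The log2 signal in wild-type 3 was below the mean of wild-type 1 and 2 by a median of -0.62, from -1.79 for Ppargc1a to -0.10 for Hadhb, while the median over all genes was 0.035. Vhl-deleted 3 differed from the mean of Vhl-deleted 1 and 2 by a median of 0.43, from -0.48 to 1.02. In lists described below, wild-type 3 was the lowest array for 26 of 26 respiratory chain genes, 17 of 17 around the cycle and 13 of 14 peroxisomal genes. It was so for 17 of 25 further genes of mitochondrial oxidation and 3 of 4 of ketone metabolism. The counts were 5 of 10 for activation and uptake, 5 of 11 for pyruvate entry and 7 of 19 for further regulators.

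The tie to tubule content was measured as the slope of each gene's log2 signal per log2 unit of the tubule marker mean, fitted over the 6 arrays with the group in the same model. The slope was positive for 36 of 37 genes with a median of 0.42, against -0.017 over all genes, and 25 passed at a limma adjusted p under 0.05, against 10.8% of all genes. None passed with a negative slope (4.57% of all genes). By role, 0 of 4 import genes, 2 of 3 acyl-CoA dehydrogenases, 6 of 8 later-step enzymes, 2 of 3 electron transfer genes, both regulators, 3 of 4 pyruvate dehydrogenase subunits and 10 of 13 cycle genes passed. By the chosen probe sets, the steepest were Ppara with 1.13 (SE 0.12), Ppargc1a with 1.08 (SE 0.13) and Ehhadh with 1.00 (SE 0.093). Other kept probe sets had slopes of 0.66 and 0.86 for Ppara and from 0.47 to 1.14 for Ppargc1a. Another of Mdh1 had 0.99, against 0.42 for its chosen one. Of the 37 further probe sets, 4 had a slope of opposite sign to the chosen one, in Cpt1a, Hadhb, Idh2 and Ogdh. The flattest chosen probe sets were those of Hadhb with -0.068, Slc25a20 with 0.14 and Hadha with 0.17. Among the tubule markers themselves, 33 of 42 slopes passed, by construction of the mean, and 5 of 19 podocyte markers passed with a negative slope.

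**Figure D3:**
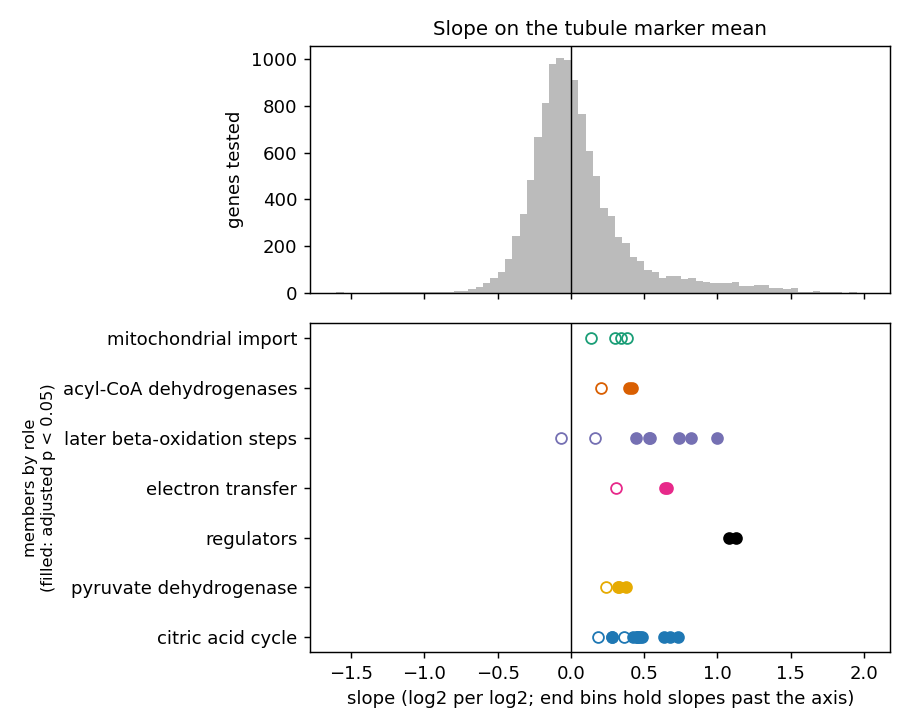
Slope of the log2 signal on the tubule marker mean (horizontal axis) for all 11159 genes (upper panel, number of genes) and for the 37 genes by role (lower panel; filled points passed at a limma adjusted p under 0.05). All genes peak near 0 with a median of -0.017, while 36 of the 37 points lie above 0 and the regulators are farthest right, at 1.08 and 1.13.

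The slopes rest in part on the arrays at the ends. Without wild-type 3, 35 of 37 slopes were positive with a median of 0.53, and 13 passed after adjustment, against 4.58% of all genes. At an unadjusted p under 0.05, 28 were positive, against 14% of all genes. Without wild-type 3 and Vhl-deleted 3, a setting chosen after the data were seen, the tubule marker mean spanned 10.79 to 11.30, 31 slopes were positive against 52.5% of all genes, and the median was 0.46. No gene of all 11159 passed on those 4 arrays, and 5 of the 37 had an unadjusted p under 0.05 with a positive slope, against 3.14% of all genes. Ppara kept a slope of 1.30 (adjusted p = 0.0325) without wild-type 3, and Ehhadh 1.03 (adjusted p = 0.0308), whereas Ppargc1a had 0.73 (adjusted p = 0.11). Whether tubule content is the source of this shared order was not tested beyond these values.

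**Figure D4:**
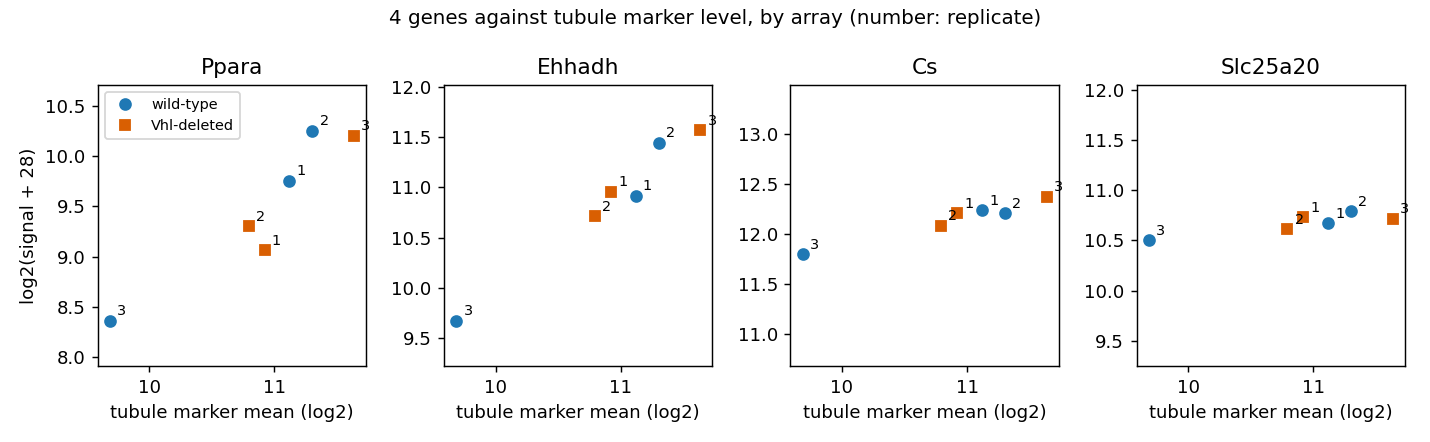
Log2(signal + 28) (vertical axis, the same span in each panel) against the tubule marker mean (horizontal axis) for Ppara, Ehhadh, Cs and Slc25a20 on the 6 arrays, numbered by replicate. Ppara and Ehhadh rise from wild-type 3 at 9.69 on the horizontal axis to the arrays above 10.79, whereas Slc25a20 is nearly flat, and in Ppara both Vhl-deleted arrays 1 and 2 lie below wild-type 1 and 2.

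In neighbouring lists too, no gene passed the test on 6 arrays, with the covariate or without wild-type 3. Among 25 further genes of mitochondrial oxidation, 20 differences were above 0 (median 0.081), but 8 with the covariate (median -0.047) and 8 without wild-type 3 (median -0.092). Among 10 genes of fatty acid activation and uptake the counts above 0 were 7, 3 and 2 in these 3 fits, with medians of 0.088, -0.082 and -0.12. Among 14 peroxisomal genes they were 12, 6 and 3, with medians of 0.15, -0.036 and -0.085. These 3 lists thus had a median above 0 on 6 arrays and below 0 in the other fits. Among 17 genes around the cycle, 17, 11 and 9 were above 0, with medians of 0.28, 0.044 and 0.0091, and among 4 genes of ketone metabolism 4, 2 and 2, with medians of 0.36, 0.043 and -0.0054. The 11 genes controlling pyruvate entry had 7, 8 and 8 above 0 (medians 0.036, 0.049 and 0.082), and 19 further regulators 9, 5 and 6 (medians -0.021, -0.038 and -0.077). Slopes on the tubule marker mean were positive and passed for 11 of 25, 3 of 10, 10 of 14, 14 of 17, 3 of 4, 2 of 11 and 3 of 19 genes. These counts follow the order of the lists above and stand against 10.8% of all genes. Of the genes controlling pyruvate entry, 1 passed with a negative slope, against 4.57% of all genes.

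A few of these genes had larger single differences. Pdk1, the hypoxia-induced kinase that switches off pyruvate dehydrogenase, had signals of 454, 422 and 202 in wild-type arrays and 549, 558 and 621 in Vhl-deleted arrays, so that the groups did not overlap, as for 5.04% of all genes in that direction. Its difference was 0.71 (SE 0.28, unadjusted p = 0.0382, limma adjusted p = 0.944), 0.48 with the covariate (limma adjusted p = 0.431) and 0.37 without wild-type 3. Pdk4, the kinase raised in fasting, had 295, 397 and 428 against 289, 184 and 291, with no overlap, as for 5.64% of all genes in the lower direction. The difference was -0.51 (limma adjusted p = 0.944), -0.50 with the covariate and -0.41 without wild-type 3. Acsl6, a long-chain acyl-CoA synthetase, had 206, 311 and 356 against 125, 198 and 166, a difference of -0.73 (unadjusted p = 0.019, limma adjusted p = 0.864), again with no overlap. It was -0.64 with the covariate and -0.58 without wild-type 3. Cd36, the fatty acid transporter, had 2125, 3239 and 3084 against 2534, 1718 and 1412, a difference of -0.59 (limma adjusted p = 0.944) that was -0.50 with the covariate and -0.51 without wild-type 3, and its groups overlapped. None of these 4 passed, and they did not share the low value in wild-type 3 except for Pdk1.

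The lowest p-values of the other lists belonged to genes whose log2 differences are given here on 6 arrays, with the covariate and without wild-type 3, in that order. In mitochondrial oxidation, Echdc2 differed by 0.68, 0.42 and 0.33 and Acot2 by -0.17, -0.16 and -0.15. In peroxisomes, Acaa1a differed by 0.25, 0.14 and 0.18 and Pecr, an enoyl-CoA reductase, by 0.73, 0.12 and -0.048. Around the cycle, Me2, the mitochondrial malic enzyme, differed by 0.30, 0.26 and 0.24 and Got1, the cytosolic aspartate aminotransferase, by 0.30, 0.13 and 0.070. In ketone metabolism, Oxct1, which activates acetoacetate, differed by 0.39, 0.11 and 0.045 and Bdh2 by 0.59, -0.047 and -0.25. Among regulators, Mxi1 differed by 0.22, 0.20 and 0.19 and Sirt1, a deacetylase of PGC-1alpha, by -0.22, -0.17 and -0.19. Bdh2 had signals of 1733, 1881 and 290.3 in wild-type arrays and 1504, 1029 and 2223 in Vhl-deleted arrays, with wild-type 3 the lowest. The groups did not overlap for Acot2 and Sirt1, which were lower, and for Mxi1, which was higher, and overlapped for the other 7 genes. These genes were picked by their low p, and 10.7% of all genes had groups that did not overlap. Of the 19 further regulators, 1 was higher and 2 were lower without overlap.

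The respiratory chain takes up the electrons released here, and glycolysis supplies the pyruvate. Of 26 respiratory chain genes all 26 differences were above 0 (median 0.21), and 22 and 16 were with the covariate and without wild-type 3 (medians 0.059 and 0.031). None passed in these fits, and 23 of the 26 slopes on the tubule marker mean were positive and passed, against 10.8% of all genes. The mean log2 signal of that list was 12.52 in wild-type 3 and 12.94 to 13.33 on the other arrays. The 11 glycolysis genes had a median of 0.81 that was 0.78 with the covariate and 0.74 without wild-type 3, with a median slope of 0.057. Pfkl, the phosphofructokinase of liver type, Pkm, pyruvate kinase, and Bsg, the partner of lactate transporters, passed the test, also without wild-type 3, and Ldha and Tpi1 passed in addition with the covariate. The difference between these lists was not tested.

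Among markers of endothelium, mesangium and smooth muscle, parietal epithelium and leukocytes, none passed the test in any of these 3 fits. Of the 19 podocyte markers, 1 passed as higher with the covariate (limma adjusted p = 0.0457), against 0.278% of all genes. None of them passed on 6 arrays or without wild-type 3. The podocyte median was -0.21 on 6 arrays, -0.10 with the covariate and -0.078 without wild-type 3. On 6 arrays, with the covariate and without wild-type 3, the median difference was 0.041, 0.069 and 0.11 over 17 endothelial markers, of which 9 were above 0 on 6 arrays. It was 0.18, 0.23 and 0.25 over 10 markers of mesangium and smooth muscle (9 above 0), and 0.35, 0.18 and 0.084 over 5 of parietal epithelium (5 above 0). Over 11 leukocyte markers it was 0.47, 0.35 and 0.32 (10 above 0). For 5 of these 11 the Vhl-deleted arrays all lay above the wild-type arrays, against 5.04% of all genes. So they did for 1 endothelial marker, 2 of mesangium and smooth muscle, 2 of parietal epithelium and 1 of podocytes. For 3 podocyte markers they all lay below. In the limma fit 5 of the 11 leukocyte markers had an unadjusted p under 0.05, against 549 of all 11159 genes. Of 6 adipocyte markers, whose tissue is rich in these enzymes, none was among the genes tested. The part of these cell types in the values above was not tested.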

How the data were processed

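Per the submitters' processing notes, the authors made the deposited signals with MAS5, on a linear intensity scale; each array has a trimmed mean of 500 (2% trimmed at each end, as computed from the files). From these, log2(signal + 28) was computed, 28 being the 25th percentile. Differences on this scale understate changes of dim genes. The platform's annotation gave 1 symbol to 34945 of 45101 probe sets and several to 932. The 64 control probe sets were left out. The upper 50% of probe sets by mean log2 signal over all 6 arrays (signal about 96.4) were kept, and the brightest stood for each gene. limma 3.58.1 in R 4.3.3 (lmFit, eBayes with an intensity trend) gave log2 differences, p-values being adjusted over the 11159 genes by Benjamini-Hochberg and called under 0.05. The fit was tested on simulated data with errors drawn independently for each gene. Apart from group differences and a tubule slope given to some genes, those data held no differences shared between genes on an array.

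The covariate was the mean of 42 tubule markers. With 3 arrays a group, 1 per mouse, the number of arrays limits precision, and signals give no read depth. The labels do not say whether equal replicate numbers mark paired mice, and the main fit used no pairing. Members and lists were chosen with earlier results of these data known. Genes given in full were the 5 with the lowest p in each fit, the 3 with the steepest and the 3 with the flattest slope, Cpt1a, Ppara, Ppargc1a and Cs, and the 2 with the lowest p of each neighbouring list. Hadh, Acadm, Pdha1 and Mdh1 were added after their values were seen. Alternatives covered scaling, pseudocount (1 and 100), filter, probe-set choice, variance model, array weights, covariate and leaving out each array. Listed genes without a match in the annotation were not analysed here.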

Additional observations from a re-analysis of the deposited data

How the results depend on the processing

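The count of oxidation and cycle genes that passed the test between groups stayed at 0 in all 22 other settings, and the lowest limma adjusted p of any of them was 0.461 (Ppara, proximal markers as covariate). Their median difference ranged from -0.074 (array weights) to 0.28 (without wild-type 2), and from -0.057 to 0.28 when 1 array was left out. The tubule marker difference ranged from -0.094 to 0.71 when 1 array was left out. Differences of uncalled genes changed sign in several settings, and the causes were not tested.

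With each array divided by its median, which moves the median of all genes to -0.057, the values were Slc25a20 -0.034, Cpt2 -0.011, Hadha -0.055 and Etfdh -0.054. With the mean of kept probe sets, they were Cpt1a 0.033, Slc25a20 -0.039 and Hadhb 0.031. With array weights (0.263 for wild-type 3, 0.491 for Vhl-deleted 3), 30 signs changed: Slc25a20 -0.013, Cpt2 -0.17, Acadvl -0.14, Acadm -0.074, Hadha -0.099, Echs1 -0.17, Hadh -0.013, Acaa2 -0.14, Ehhadh -0.071, Decr1 -0.023, Acat1 -0.024, Etfa -0.12, Etfb -0.076, Etfdh -0.17, Ppara -0.58, Ppargc1a -0.21, Pdha1 -0.049, Pdhb -0.11, Dlat -0.023, Dld -0.091, Cs -0.0017, Idh2 -0.10, Idh3a -0.11, Idh3b -0.011, Idh3g -0.13, Sucla2 -0.035, Suclg1 -0.017, Suclg2 -0.053, Fh1 -0.091 and Mdh1 -0.024.

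With the tubule covariate, 21 changed sign: Slc25a20 -0.028, Cpt2 -0.11, Acadvl -0.075, Acadm -0.013, Hadha -0.060, Echs1 -0.11, Acaa2 -0.072, Ehhadh -0.010, Etfa -0.050, Etfb -0.036, Etfdh -0.12, Ppara -0.40, Ppargc1a -0.043, Pdhb -0.057, Dlat -3.8e-05, Dld -0.025, Idh2 -0.029, Idh3a -0.016, Idh3g -0.048, Sucla2 -0.0012 and Mdh1 -0.010. With proximal markers alone, 24 did: Slc25a20 -0.034, Cpt2 -0.12, Acadvl -0.090, Acadm -0.029, Hadha -0.067, Echs1 -0.12, Acaa2 -0.11, Ehhadh -0.051, Acat1 -0.020, Etfa -0.076, Etfb -0.063, Etfdh -0.13, Ppara -0.45, Ppargc1a -0.085, Pdhb -0.071, Dlat -0.0076, Dld -0.040, Idh2 -0.048, Idh3a -0.041, Idh3g -0.066, Sucla2 -0.0074, Suclg2 -0.011, Fh1 -0.015 and Mdh1 -0.028. With distal markers alone, 8 did: Slc25a20 -0.0092, Cpt2 -0.056, Acadvl -0.023, Hadha -0.037, Echs1 -0.056, Etfdh -0.080, Ppara -0.24 and Pdhb -0.012.

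Leaving out 1 array at a time changed 28 signs without wild-type 3, 10 without Vhl-deleted 3 and 1 or 2 without each other array. The ranges were Cpt1a -0.17 to 0.21, Slc25a20 -0.047 to 0.098, Cpt2 -0.15 to 0.21, Crat -0.24 to 0.050, Acadvl -0.094 to 0.20, Acadm -0.040 to 0.27, Hadha -0.091 to 0.079, Echs1 -0.13 to 0.19, Hadh -0.060 to 0.59, Acaa2 -0.14 to 0.57, Ehhadh -0.099 to 0.79, Acat1 -0.083 to 0.39, Etfa -0.10 to 0.43, Etfb -0.11 to 0.47, Etfdh -0.15 to 0.11, Ppara -0.48 to 0.46, Ppargc1a -0.19 to 0.76, Pdhb -0.099 to 0.18, Dlat -0.0013 to 0.18, Dld -0.057 to 0.23, Cs -0.0023 to 0.22, Idh2 -0.049 to 0.31, Idh3a -0.091 to 0.43, Idh3g -0.055 to 0.29, Sucla2 -0.0041 to 0.12, Suclg1 -0.0052 to 0.54, Suclg2 -0.021 to 0.58, Fh1 -0.022 to 0.36, Mdh1 -0.089 to 0.31 and Mdh2 -0.029 to 0.39. Acadl, Ogdh and Dlst kept their sign in all 22 settings, read from the chosen probe set or the mean of the kept ones.

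Over all genes, 8 called higher became 13 with every probe set a feature, 30 with array weights, 31 with the tubule or proximal covariate, 26 with the distal one, 15 at a threshold of 0.1 and 1 to 12 when 1 array was left out. The 1 called lower became 0 with median scaling, the mean of probe sets or no trend, 3 with array weights or a threshold of 0.1, 4 with the tubule or proximal covariate, 6 with the distal one and 0 to 1 when 1 array was left out. With the replicate number as a block, 1 gene was higher and 0 lower, and 0 of the 37 passed; the correlations of same-numbered arrays were -0.020, -0.41 and -0.51. The 25 positive slopes that passed became 13 without wild-type 3 (the lowest of a range of 13 to 26 when 1 array was left out), 0 without wild-type 3 and Vhl-deleted 3, 18 with array weights and 33 at a threshold of 0.1.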
